A study of Sus scrofa with 23 samples.

Results

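LUM, COL6A3 and COL1A2 are genes of the stromal extracellular matrix, the scaffold that fibroblasts and other mesenchymal cells lay down. They were followed here on arrays of pig bone marrow-derived macrophages. All probe sets that the platform annotation gives to 1 of these genes alone were taken: 1 for LUM, 1 for COL6A3 and 2 for COL1A2, a brighter and a dimmer one. These are 4 of the 23999 probe sets tested and 3 of the 6765 named genes. The genes were chosen by their log2 levels on these same arrays, so those levels are given as a description, with no test of the split itself.

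Marrow cells of Large White x Landrace F1 pigs were grown with recombinant human CSF1, a growth factor that drives marrow precursors to become macrophages, and then exposed to 100 ng/ml lipopolysaccharide (LPS, a bacterial cell wall component) of Salmonella enterica serotype minnesota Re 595. The labels give 6 arrays at 0 h (unstimulated), 6 at 2 h, 6 at 7 h and 5 at 24 h, from 3 pigs. Every pig-by-time combination holds 2 cultures, but for pig 3 at 24 h with 1. Pigs 1 and 3 are labelled male and pig 2 female, and the cultures of all 4 times share the CSF1 step. Values are RMA intensities per probe set, given as log2, and array medians ran from 69.5 to 73.9 intensity units.

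Lumican, the product of LUM, is a small leucine-rich proteoglycan that binds collagen fibrils and governs their spacing. COL6A3 encodes the alpha 3 chain of type VI collagen, which forms beaded filaments around cells, and COL1A2 the alpha 2 chain of type I collagen, the main fibre of bone, skin and tendon. Fibroblasts and marrow stromal cells are the textbook source of all 3. In cultures of whole marrow, stromal cells can adhere and grow beside the macrophages.

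The labels failed 2 checks, which bears on every comparison below. The Y-linked gene EIF1AY ran from 8.16 to 9.45 in log2 intensity on 15 arrays and from 3.60 to 4.08 on 8. On 8 of the 23 arrays its level went against the sex in the label. Over all probe sets outside the members, 11 pairs of arrays were mutually the most similar (r from 0.995 to 0.998). All 11 were neighbouring columns of the deposited table and shared the labelled pig, but 0 of 11 shared the labelled time: 6 joined labelled 2 h with 0 h and 5 joined 24 h with 7 h. Labelled duplicate cultures correlated less, at 0.975 to 0.990. Together with the genes, an order of the columns by time, animal and culture had been proposed from the likeness of these arrays. The labels do not state that order, so no time or animal was read from a column's place, and column numbers below only name arrays.

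The macrophage identity given by the labels was described with 11 measured markers. LGMN, a lysosomal protease, ran from 13.91 to 14.35, CTSD, another lysosomal protease, from 13.27 to 13.82, TYROBP, a myeloid signalling adaptor, from 12.61 to 13.14, and AIF1, a calcium-binding protein of macrophages, from 12.62 to 13.36. These 4 were picked for the highest means of the 11, so their height is no test of identity. They ranged over 0.43 to 0.74 on the log2 scale, where the array medians lay between 6.11 and 6.20. CD14, the co-receptor of LPS, ran from 7.13 to 11.00, and ITGAM, an integrin of myeloid cells, from 4.39 to 5.03.

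COL6A3 took 2 separate levels. It stood at 10.14 and 10.08 on columns 1 and 2, 9.68 and 10.02 on columns 7 and 8, 9.71 and 9.46 on columns 13 and 14, and 10.02 and 9.97 on columns 19 and 20. On the other 15 arrays it lay between 5.59 and 7.39, so that 8 arrays stood above a gap of 2.07 on the log2 scale. These 8 were 4 of the 11 most similar pairs. In bulk RNA such as this, fewer cells of a type and less RNA per cell cannot be told apart.

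By label, the 8 arrays with the highest COL6A3 were spread evenly over time, with 2 at each of the 4 labelled times. By labelled pig they were 4 of pig 1, 2 of pig 2 and 2 of pig 3. All 8 had the high EIF1AY level, and 2 of the 8 were among the arrays that went against their labelled sex.

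LUM was high on most of the same arrays and had the wider range, 6.15 on the log2 scale. It stood at 9.22 and 9.38 on columns 1 and 2, 8.83 and 8.80 on columns 7 and 8, and 8.59 and 8.83 on columns 13 and 14. These 6 arrays stood above a gap of 2.43. On columns 19 and 20, where COL6A3 was as high as elsewhere, LUM had only 6.13 and 5.79, next to the 6.15 and 5.92 of columns 3 and 4.

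Below the gap, LUM still covered a wide range. Columns 9 and 10 had 5.44 and 5.69, columns 15 and 16 had 5.47 and 5.37, and columns 5 and 6 had 5.23 and 5.18. Columns 11 and 12 had 4.81 and 4.71, and columns 17 and 18 had 4.59 and 4.56. The lowest values were 4.03 and 3.65 on columns 21 and 22 and 3.23 on column 23. Columns 19 and 20 overlapped with columns 3 and 4, and columns 15 and 16 with columns 9 and 10, whereas the other pairs in this order did not overlap. The highest and lowest of the 23 arrays were 71.2-fold apart in intensity.

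COL6A3 also varied below its gap, and did so in nearly the same order as LUM. It had 7.31 and 7.39 on columns 3 and 4, 7.10 and 7.35 on columns 9 and 10, and 7.13 and 7.31 on columns 15 and 16. It had 6.38 and 6.51 on columns 5 and 6, 6.34 and 6.68 on columns 11 and 12, and 6.47 and 6.16 on columns 17 and 18. Columns 21 to 23, with 5.92, 6.48 and 5.59, overlapped with those, so no order holds among the lowest.

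COL1A2 showed neither split. Its brighter probe set stayed between 6.80 and 7.42 on all 23 arrays (median 7.16), and its dimmer one between 3.54 and 3.99 (median 3.72). On the 4 pairs with high COL6A3, the brighter probe set had 7.12 and 7.06, 6.89 and 7.15, 7.19 and 7.25, and 7.21 and 7.37, all inside the range of the other arrays. The 2 probe sets did not follow each other (r = 0.13 over 12 units, each a most similar pair averaged or the single array left over). Whether they detect the porcine transcript was not tested.

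**Figure D1:**
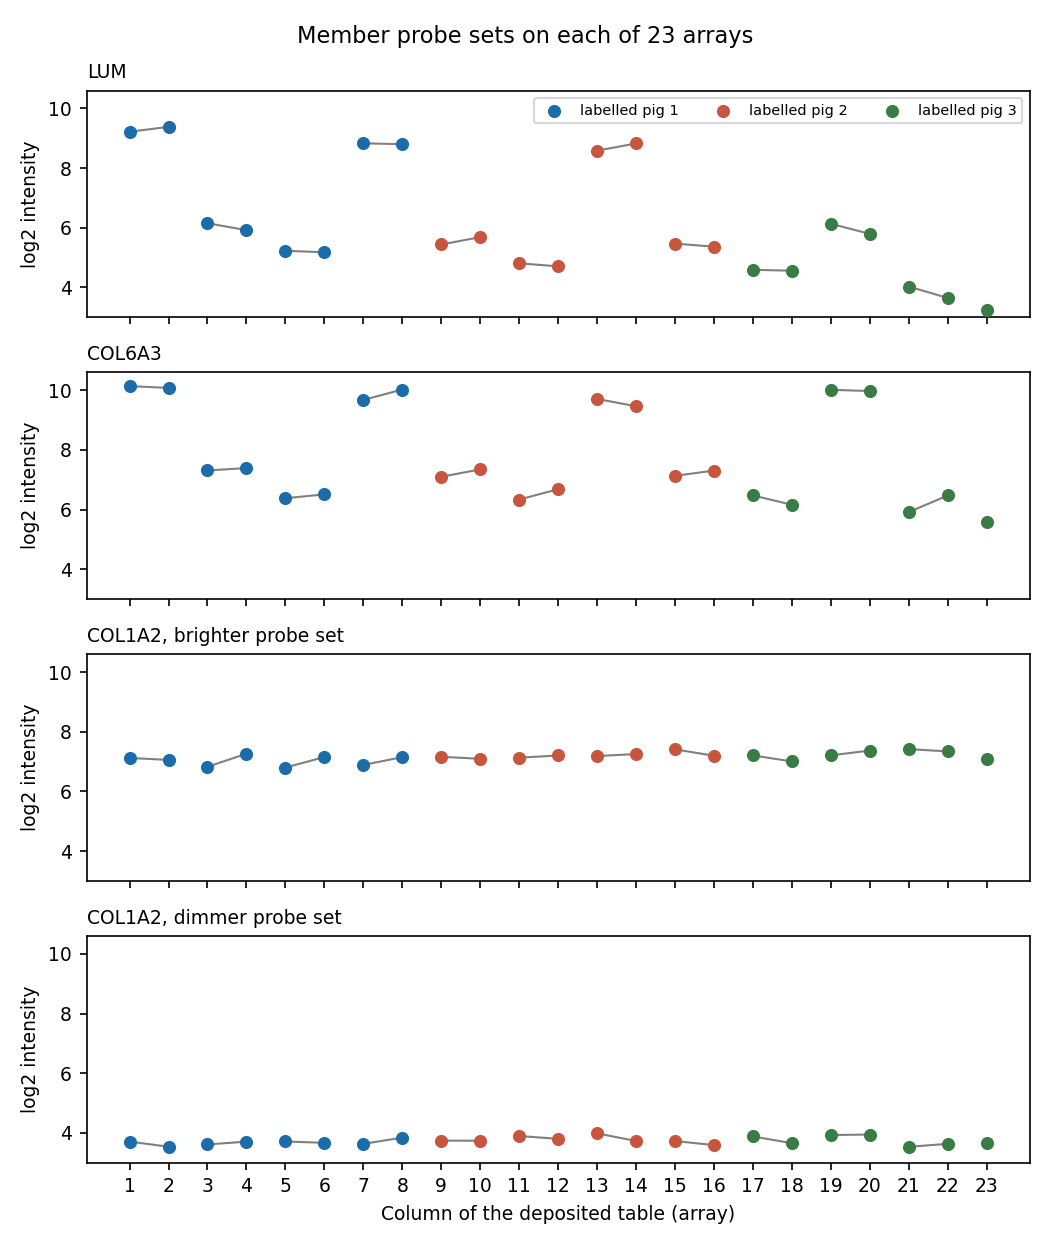
Log2 intensity (vertical) of the 4 member probe sets on each array, by column of the deposited table (horizontal). Points are arrays, coloured by labelled pig, and grey lines join most similar pairs. COL6A3 is high on columns 1, 2, 7, 8, 13, 14, 19 and 20, LUM on the first 6 of these, and both COL1A2 probe sets stay level.

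The most similar pairs differed little in LUM and COL6A3. They were picked for their likeness over other probe sets, and their labels give different times, so their differences are no measure of replicate error. The pairs differed by a median of 0.17 in LUM, and at most 0.38, against its range of 6.15. In COL6A3 they differed by a median of 0.25, and at most 0.56, against a range of 4.55. The brighter COL1A2 probe set differed by a median of 0.16 within pairs and ranged over 0.62 in all, and the dimmer one by 0.10 over 0.45. The median gene had a range of 0.96 and a median pair difference of 0.10. Only 0.429% of named genes had a range as wide as LUM and 1.55% one as wide as COL6A3, while 80.2% had one at least as wide as the brighter COL1A2 probe set.

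The share of each gene's variance that lay between labels describes the same pattern. Labelled time held 0.946% of the variance of LUM, 2.58% of that of COL6A3 and 9.93% of that of COL1A2 (brighter probe set), where the median gene had 4.46%. Labelled pig held 36.3%, 9.83% and 30.6% in that order, where the median gene had 36.2%. Whether the array was a labelled first or duplicate culture held 0.0411%, 0.685% and 1.03%. Membership of a most similar pair held 99.7% for LUM, 99.3% for COL6A3 and 56.3% for COL1A2, with 93.8% for the median gene. The last shares come from 12 units for 23 arrays, picked for likeness over other probe sets, and are high for that reason too.

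None of the 4 probe sets passed the test of labelled time. Nor did any of 8 genes known to respond to LPS, and TNF, which ranged over 7.14 on the log2 scale, had an adjusted p of 0.973 or higher. IL1B, also among these genes, went against the labelled times. On columns 1, 5, 9, 13, 17 and 21, labelled 0 h, it had 7.62, 7.93, 14.17, 14.36, 13.04 and 14.21. On columns 4, 8, 12, 16 and 20, labelled 24 h, it had 7.72, 14.26, 13.69, 13.92 and 12.85. With labels that failed their checks, the test therefore shows neither a change of the members over time nor its absence. Over the 5 comparisons between times and the test of any difference, limma's adjusted p of the members ran from 0.914 to 1.000. Of all 23999 probe sets, 0.0125% passed at 2 h, 0.0% at 7 h and 0.00417% at 24 h when each was set against 0 h. For 7 h over 2 h and for 24 h over 7 h it was 0.00417% each, and for any difference 0.00833%. The test took the labelled pig as the replicate, with duplicate cultures averaged and pig as a term.

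For LUM the mean log2 level was 6.18 ± 1.62 at labelled 0 h, 6.21 ± 1.83 at 2 h, 5.77 ± 1.51 at 7 h and 6.06 ± 1.19 at 24 h (SD, n = 3 labelled pigs). The arrays ran from 4.03 to 9.22 (median 5.33) at 0 h, from 3.65 to 9.38 (median 5.43) at 2 h and from 3.23 to 8.83 (median 5.80) at 7 h. The 5 arrays labelled 24 h had 5.92, 8.80, 4.71, 5.37 and 5.79. The 4 groups overlapped throughout. Against 0 h, LUM differed by 0.03 at 2 h, -0.41 at 7 h and -0.12 at 24 h, each with an SE of 0.66. Without the 8 arrays against their sex, the differences were 0.09, 0.58 and 0.90 (SE 0.41), so that those at 7 h and 24 h changed sign, with adjusted p of 0.816 or higher. The arrays kept still hold columns 9 and 17, labelled 0 h, with IL1B at 14.17 and 13.04. Here and below, leaving out the 8 arrays therefore did not mend the time labels. All 6 arrays labelled 2 h form most similar pairs with arrays labelled 0 h. Small differences at 2 h, here and below, therefore go with that likeness and say nothing of time. Each SE comes from a spread pooled over all labelled times, so it does not measure the spread of the 2 h difference itself.

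For COL6A3 the mean log2 level was 7.62 ± 1.24 at labelled 0 h, 7.67 ± 1.17 at 2 h, 7.68 ± 0.89 at 7 h and 8.56 ± 1.49 at 24 h (SD, n = 3 labelled pigs). The arrays ran from 5.92 to 10.14 (median 6.79) at 0 h, from 6.16 to 10.08 (median 6.93) at 2 h and from 5.59 to 10.02 (median 7.22) at 7 h. The 5 arrays labelled 24 h had 7.39, 10.02, 6.68, 7.31 and 9.97, again overlapping with the rest. It differed from 0 h by 0.05 at 2 h and 0.06 at 7 h. The difference was largest, 0.94 ± 0.89 (SE), at 24 h, where pig 3 has a single array, with a high value. Without pig 3 it was -0.48, without pig 2 it was 2.11, and without the 8 arrays against their sex it was 1.82 ± 0.62 (limma adjusted p = 0.739).

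For COL1A2 the brighter probe set averaged 7.15 ± 0.18 at labelled 0 h, 7.15 ± 0.04 at 2 h, 7.09 ± 0.21 at 7 h and 7.26 ± 0.10 at 24 h (SD, n = 3 labelled pigs). Its differences from 0 h were 0.00 at 2 h, -0.06 at 7 h and 0.11 at 24 h (SE 0.09), and those of the dimmer one -0.10, -0.02 and 0.05 (SE 0.08). All lay within about the spread between pigs, and the groups overlapped. Without the 8 arrays against their sex, those of the brighter probe set were -0.04, 0.04 and 0.13 (SE 0.12).

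**Figure D2:**
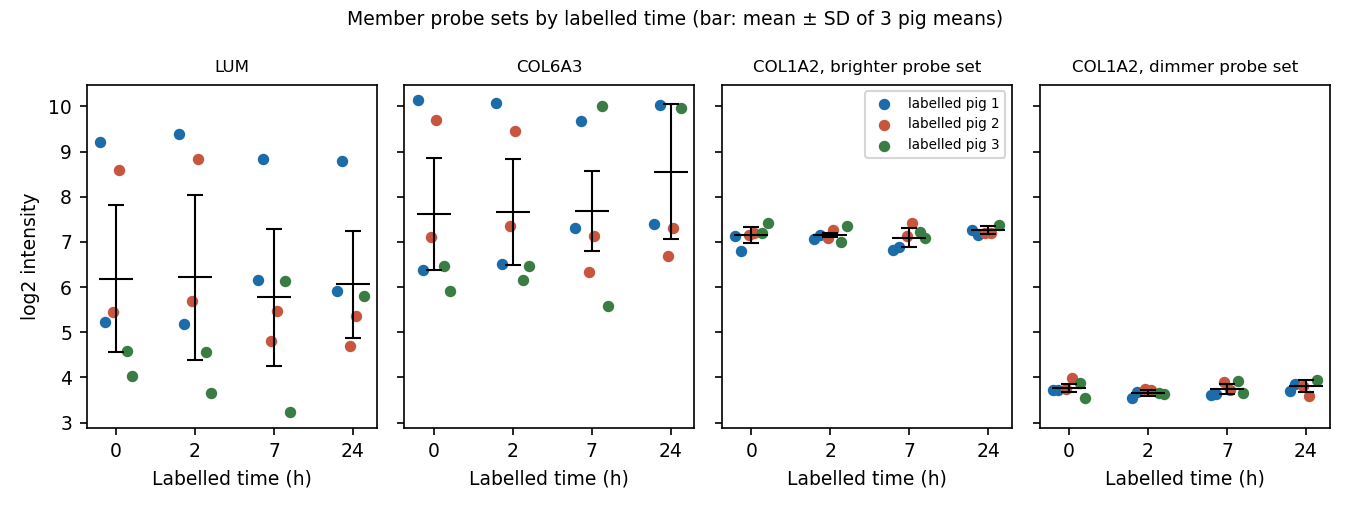
Log2 intensity (vertical) of the member probe sets by labelled time in hours (horizontal). Points are arrays coloured by labelled pig, and bars give the mean ± SD of 3 labelled pig means. High and low LUM and COL6A3 arrays occur at each labelled time.

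Between labelled pigs, LUM passed limma's F test (adjusted p = 0.0205), as did 36.2% of all probe sets. LUM averaged 7.34 ± 0.12 under the label of pig 1, 6.11 ± 1.19 under pig 2 and 4.72 ± 0.75 under pig 3 (SD, n = 4 labelled times). Each mean of pig 1 joined a high and a low culture, such as 9.22 and 5.23 at 0 h, hence its small SD. Over the single arrays of pig 1 the SD was 1.87. The arrays ran from 5.18 to 9.38 under pig 1, from 4.71 to 8.83 under pig 2 and from 3.23 to 6.13 under pig 3, so the pigs overlapped. The call did not hold with each most similar pair averaged to 1 unit (adjusted p = 0.154), with first cultures only (0.0733), without pig 1 (0.310) or without pig 3 (0.0827). Without the 8 arrays against their sex the adjusted p was 0.00501. Labelled times 2 h and 0 h, and 24 h and 7 h, of a pig hold the most similar pairs, so they are not separate units and the p-values of this test are too small.

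COL6A3 did not pass (adjusted p = 0.575). It averaged 8.44 ± 0.21 under pig 1, 7.64 ± 0.89 under pig 2 and 7.57 ± 1.76 under pig 3 (SD, n = 4 labelled times). The arrays ran from 6.38 to 10.14 under pig 1, from 6.34 to 9.71 under pig 2 and from 5.59 to 10.02 under pig 3, and overlapped throughout. The small SD under pig 1 comes from averaging a high and a low culture at each labelled time. COL1A2 did not pass with either probe set (adjusted p = 0.108 and 0.457), but its brighter one passed with the 23 arrays and a random block (0.0300) and with quantile normalization (0.0368). Without the 8 arrays the adjusted p was 0.110 for COL6A3 and 0.381 for the brighter COL1A2 probe set.

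LUM and COL6A3 followed each other over the 12 units (Pearson r = 0.90, Spearman rho = 0.95). Without the 2 units farthest from the median of LUM, r was 0.82. Of their 8 highest arrays they shared 7, and 1.58% of the other named genes shared at least 7 with COL6A3. The units share labelled pigs, and 2 levels dominate the range, so r mainly describes the split. COL1A2 followed neither LUM (r = -0.22) nor COL6A3 (r = 0.03).

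**Figure D3:**
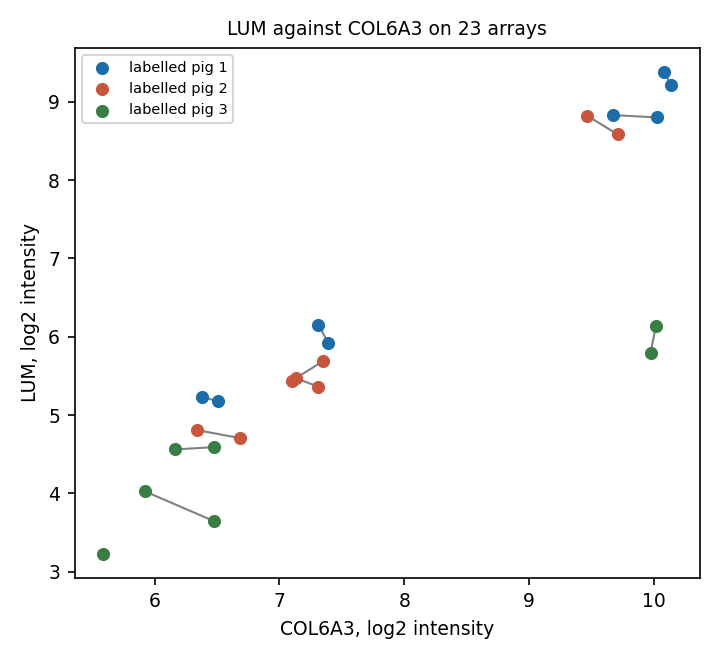
LUM (vertical) against COL6A3 (horizontal), both log2 intensity, on 23 arrays coloured by labelled pig, with lines joining most similar pairs. Columns 19 and 20 stand apart at lower right, with LUM at 6.13 and 5.79 and COL6A3 at 10.02 and 9.97.

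The genes most like COL6A3 over the 12 units were matrix genes and collagen chaperones. They were DCN, which encodes decorin, a proteoglycan of the lumican family (r = 0.99), SPARC, a collagen-binding glycoprotein (0.98), FKBP10, a folding enzyme of collagen (0.98), TNC, the glycoprotein tenascin C (0.97), and SERPINH1, the collagen chaperone HSP47 (0.96). All 5 had the same 8 highest arrays as COL6A3, a feature that 0.843% of the 6762 other named genes shared. The likeness was chosen as the highest among genes with a range of at least 1, so its size is no finding.

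DCN stood at 8.76 and 8.58 on columns 1 and 2, 8.38 and 8.17 on columns 7 and 8, 8.23 and 8.36 on columns 13 and 14, and 7.99 and 8.0 on columns 19 and 20. Its other arrays lay between 4.47 and 5.97. SPARC had 11.09 and 11.13, 10.64 and 10.65, 10.64 and 10.85, and 11.26 and 11.17 on those pairs in the same order, and between 6.93 and 7.90 elsewhere. Both genes were thus high on columns 19 and 20, as COL6A3 was and LUM was not.

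The genes most like LUM were CAV1, which encodes the membrane-coat protein caveolin 1 (r = 0.97), TCN2, a carrier of vitamin B12 (0.94), FOLR2, a folate receptor known from macrophages (0.94), PARVA, an actin-binding protein of focal adhesions (0.94), and SLK, a protein kinase (0.93). CAV1 had 6.49 and 6.64 on columns 1 and 2, 6.14 and 6.18 on columns 7 and 8, and 6.43 and 5.67 on columns 13 and 14. It had 5.07 and 5.05 on columns 19 and 20, between those values and the 3.46 to 4.58 of the other arrays. CAV1 and FOLR2 shared all 8 highest arrays with COL6A3 and 7 of 8 with LUM, and TCN2 and SLK all 8 with LUM.

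The genes most like COL1A2 were SLC5A4 (r = 0.86), HEY2, a transcriptional repressor (0.85), RHBDF2, a membrane trafficking protein (0.85), LOC396566 (0.84) and CCL24, a chemokine that attracts eosinophils (0.84). Over the 23 single arrays these r were 0.55 to 0.69. The brighter COL1A2 probe set ranged over only 0.62, and within pairs it differed by up to 0.44.

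**Figure D4:**
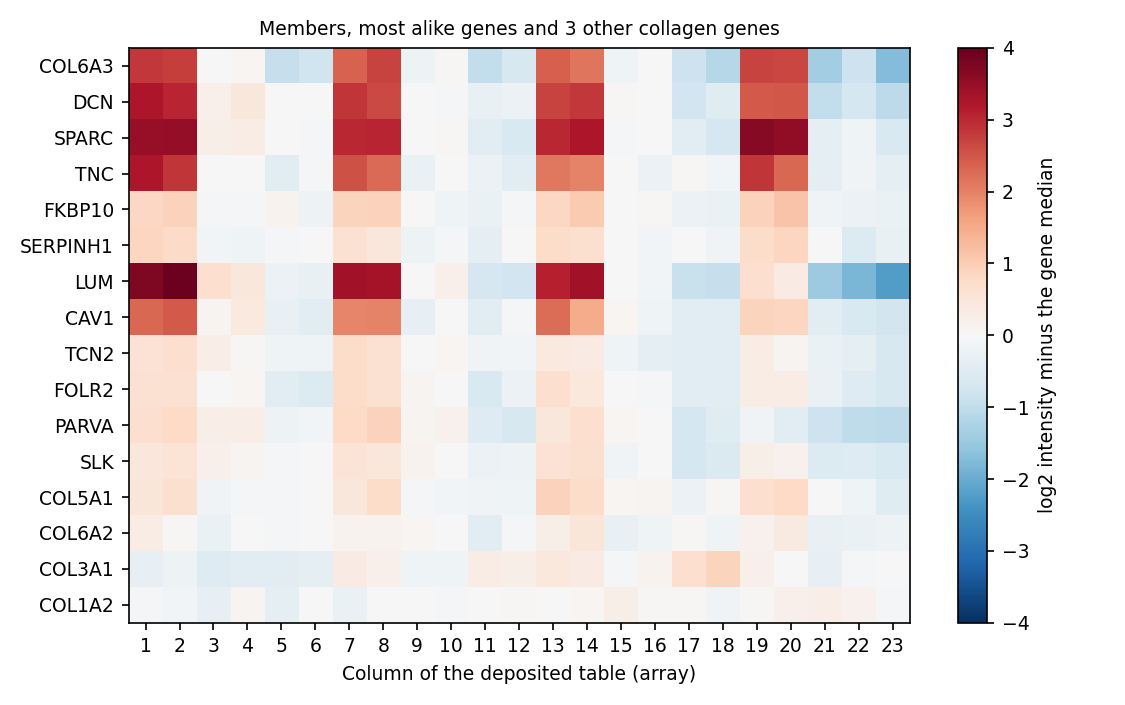
Log2 intensity minus each gene's median over the arrays (colour) for the members, the genes most like LUM and COL6A3 and 3 other collagen genes (rows) by column of the deposited table (horizontal). The 8 highest arrays of COL5A1 are columns 1, 2, 7, 8, 13, 14, 19 and 20, and COL6A2 shares 7 of them, COL3A1 4 and COL1A2 3.

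Among the other collagens the pattern was not general. With r of at least 0.8 as the measure, 1.21% of all other named genes followed COL6A3. Of the 6 other fibrillar collagens measured, 1 did: COL5A1, a minor chain that nucleates type I fibrils, ran from 6.38 to 7.81 (r = 0.95). COL3A1, the main chain of reticular fibres, ran from 6.40 to 7.81 with r = 0.07, and COL11A1 from 4.58 to 5.27 with r = -0.03. COL2A1, COL5A2 and COL5A3 ranged over 0.50 to 0.60. Of 5 other collagens, 1 followed: COL6A2, the partner chain of COL6A3 in type VI collagen, ran from 6.29 to 7.19 (r = 0.86). COL15A1 ranged more widely, from 6.54 to 9.07, with r = -0.20, and COL4A2, a basement membrane chain, had r = 0.44.

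Of the 4 small leucine-rich proteoglycans beside LUM, DCN alone reached that r with COL6A3. BGN, which encodes biglycan, ran from 7.80 to 9.23 (r = 0.57), ASPN, which encodes asporin, from 3.35 to 4.22 (r = 0.70), and PRELP from 4.65 to 5.35 (r = -0.09). With LUM, DCN (r = 0.93) and ASPN (0.84) reached it, where 1.15% of named genes did. With COL1A2 0.414% of named genes did.

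Collagen-processing genes split in a similar way, and 3 of 10 reached r of 0.8 with COL6A3. LOX and LOXL1, enzymes that cross-link collagen, ran from 4.01 to 6.96 (r = 0.94) and from 3.93 to 5.95 (r = 0.94), and SERPINH1 was the third. PLOD1, a lysyl hydroxylase, ran from 7.69 to 10.15 with r = -0.11. P4HA2, a subunit of prolyl hydroxylase, ran from 5.79 to 8.04 with r = 0.72. BMP1, which trims procollagen, ran from 5.61 to 7.76 with r = -0.51.

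Of 14 matrix glycoproteins, 4 reached it. FBN1, the microfibril protein fibrillin 1, ran from 4.60 to 8.62 (r = 0.95) and THBS1, thrombospondin 1, from 7.43 to 11.29 (r = 0.83), beside SPARC and TNC. The widest range was that of LAMB1, a laminin chain, from 4.04 to 8.76 with r = 0.55. MFAP5, MFAP2 and FBLN1 of this list had a negative r (-0.66, -0.52 and -0.31). None of 12 genes of matrix degradation reached it, and so few genes cannot be told from the 1.21% over the other named genes. MMP9, a gelatinase, ran the other way, from 5.95 to 7.95 with r = -0.88. TIMP1, an inhibitor of these proteases, had the widest range of that list, from 7.27 to 12.50, with r = 0.09. The collagenase MMP1 ran from 4.61 to 9.04 (r = 0.71), the stromelysin MMP3 from 3.55 to 7.60 (r = 0.14) and the protease ADAMTS1 from 6.14 to 10.51 (r = -0.68).

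Of 17 stromal and fibroblast markers, 5 reached r of 0.8 with COL6A3. PDGFRB, a growth factor receptor of pericytes and fibroblasts, ran from 6.24 to 9.37 (r = 0.95), CALD1, a regulator of actin and myosin, from 6.16 to 9.36 (r = 0.93), and TPM2, a tropomyosin, from 6.39 to 9.04 (r = 0.89). TAGLN and FAP were the other 2 (r = 0.91 and 0.85). The median r of this list was 0.47, against 0.42 for the macrophage markers and -0.03 for all named genes. CXCL12, LEPR and CNN1 stayed low and within 0.70 on all arrays (r = -0.39, 0.26 and -0.11). TWIST2 and IGFBP5 also had a negative r, -0.68 and -0.25. Among the same markers ENG, a receptor of the TGF-beta family, ran from 4.88 to 7.51 (r = 0.47).

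The summed intensity of the 17 markers overlapped between labelled times, but VCAM1 and S100A4 dominate this sum and it says little of the others. It ran from 17656 to 27622 intensity units at 0 h, 17044 to 28028 at 2 h, 13808 to 27673 at 7 h and 18361 to 28207 at 24 h. These 2 genes had medians of 13.56 and 13.52, the highest of the list, and r with COL6A3 of 0.06 and 0.45. None of the 17 passed limma's test of any difference among labelled times, and 0 of the 6765 named genes did. VCAM1 and S100A4 passed that of labelled pig, 2 of 17, where 3272 of the 6765 named genes did. The part of stromal cells in the levels of LUM and COL6A3 was not tested.

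Some markers of other cells reached that r as well. Of 11 macrophage markers, 3 reached r of 0.8: MRC1, the mannose receptor, ran from 6.20 to 8.71 (r = 0.87), C1QA, a complement subunit, from 8.63 to 9.47 (0.87), and C1QC, another, from 8.97 to 10.53 (0.84). Of 8 endothelial markers 1 did, PECAM1 (9.68 to 10.70, r = 0.86), which myeloid cells also carry. CDH5 and KDR, which define endothelium, stayed between 4.12 and 4.61 (r = -0.80) and between 3.83 and 4.37 (r = -0.64). ESAM, an endothelial adhesion molecule, had r = -0.76, and the median r of the list was -0.32. Of 7 osteoblast, 8 T and NK cell, 3 B cell, 5 granulocyte and 5 erythroid and platelet markers, 0 reached it. The share over the other named genes was 1.21%, and so few markers cannot be told from it.

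**Figure D5:**
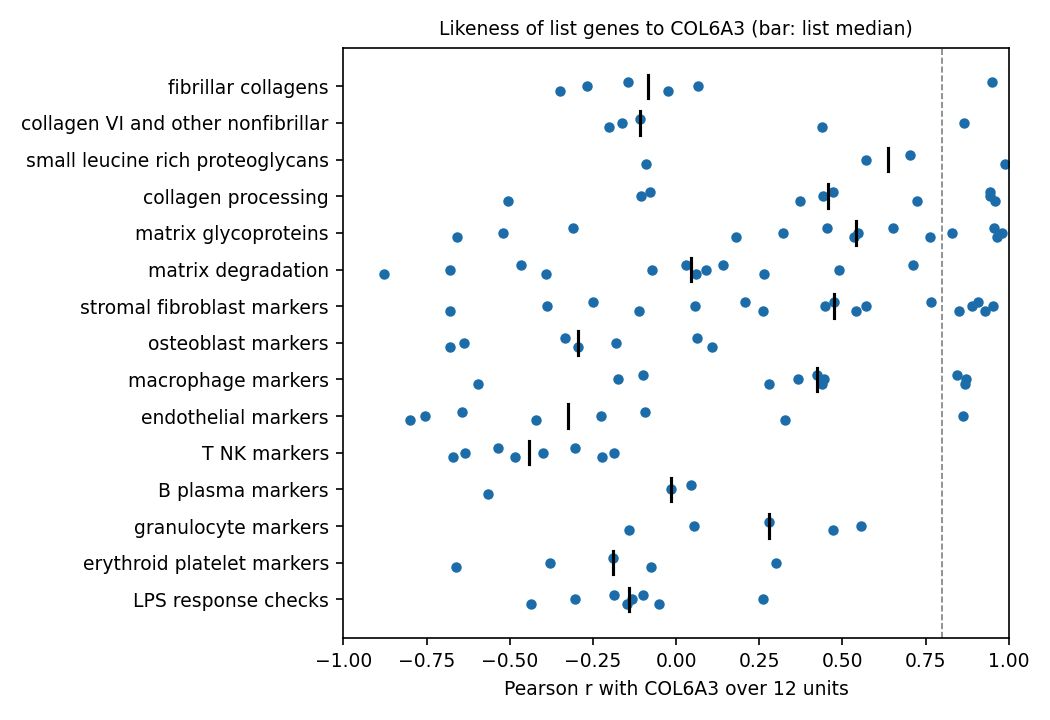
Pearson r with COL6A3 over 12 units (horizontal) for each measured gene of 15 lists (rows), members left out. Points are genes, bars list medians, and the dashed line marks r = 0.8, which 5 of 17 stromal and fibroblast markers and 0 of 8 LPS response genes reached.

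Of the 8 genes known to respond to LPS, 0 reached r of 0.8 with COL6A3, where 1.21% of named genes did, and so few genes cannot be told from that share. TNF, an inflammatory cytokine, ran from 5.42 to 12.56 over the arrays with r = -0.19 to COL6A3, and IL1B, another, from 7.53 to 14.37 with r = -0.05. The 8 genes of this kind had r from -0.44 (CXCL9) to 0.26 (IL6), and their highest arrays shared 0 to 4 of 8 with COL6A3. Their Spearman's rho ran from -0.69 (CXCL9) to 0.13 (IL6), and CXCL8 had a rho of -0.59 where its r was -0.13. EIF1AY had r = 0.30.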

How the data were processed

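RNA of 23 macrophage cultures was hybridized to Affymetrix porcine arrays. The authors deposited 1 linear intensity for each probe set, made with RMA in affy, as the submitters' processing notes record; their versions are not given in the sources. RMA corrects background and equalizes arrays, so differences shared by all probe sets are removed. The number of arrays limits the precision.

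All intensities were put on the log2 scale. Of 24123 probe sets, 124 controls were left out. Of the rest, 10069 had 1 annotated gene, 198 had several and 13732 had none listed; symbols were updated through RefSeq gene identifiers (Sscrofa11.1), which matched 9961. The probe set with the highest mean stood for a gene. No coordinates are given, because the files name no genome build.

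Groups follow the labels. The 2 cultures of a pig and time were averaged to 12 pig-by-time means and tested with limma (version 3.58.1, R 4.3.3), time and pig as terms, 6 residual degrees of freedom, Benjamini-Hochberg over all probe sets, threshold 0.05. The design text says the same pigs supplied every time; within a labelled pig, deviations from the time means had r of 0.27 to 0.97. The test was checked on simulated data with independent units and true time labels. The arrays here hold most similar pairs across labelled times, and their labels failed their checks. That check therefore does not cover the p-values given here.

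Every member probe set is reported, with the 5 genes of highest r to each over 12 units, the list members of widest range (up to 4 per matrix or stromal list) and the 4 macrophage markers of highest mean. Other list genes named, such as COL2A1, PRELP, LOXL1, MMP9, CD14, MRC1, CDH5 and FAP, were chosen after their values were seen. Members and lists were chosen with earlier results of these data known. Alternatives covered the pig term, duplicate cultures, dim probe sets (highest log2 value under 6 left out), quantile normalization, arrays against their labelled sex, and single pigs.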

Additional observations from a re-analysis of the deposited data

Results flagged for a closer look

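Of 16 combinations of member probe set and labelled time, 0 had an array far from all others by Dixon's criterion. The criterion looks for a single array apart from the rest. Each labelled time held 2 of the 8 arrays with the highest COL6A3, so it could not flag those arrays.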

How the results depend on the processing

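For labelled time, 0 of 4 member probe sets passed limma's test in each of the 6 comparisons under every alternative run, the fit with no replicate block among them (0 called); adjusted p was 0.739 or higher. Over all probe sets, 0 to 34 passed for any difference among times. For labelled pig, 1 member probe set passed (LUM), 2 did (LUM and the brighter of COL1A2) with 23 arrays and a random block or with quantile normalization, 0 with first cultures only or with most similar pairs averaged, and 0 to 1 without single pigs. Signs of uncalled differences turned, among them the largest of the 3 genes against 0 h (COL6A3 at 24 h, 0.94). Set against 0 h, LUM at 2 h was -0.074 to 0.151 without single pigs. COL6A3 was -0.042 with first cultures and -0.010 without the 8 arrays against their sex. COL1A2 was -0.069 to 0.072 without single pigs, -0.11 with first cultures, -0.041 without the 8 arrays and -0.10 on the other probe set. At 7 h, LUM was -0.80 to 0.32 without single pigs and 0.58 without the 8 arrays. COL6A3 was -0.72 to 0.92 without single pigs and -0.016 with first cultures, and COL1A2 0.038 without the 8 arrays. At 24 h, LUM was -0.92 to 0.81 without single pigs and 0.90 without the 8 arrays, and COL6A3 -0.48 to 2.11 without single pigs. The cause was not tested. With Spearman's rho, 1 of the 5 genes most like LUM, 2 of those most like COL6A3 and 2 of those most like COL1A2 stayed among the top 5. Quantile normalization moved the ranges by less than 1 SD.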
